A study of Macaca mulatta with 24 samples.

Results

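Very heavy drinkers (VHD) were compared with heavy drinkers (HD), the 2 categories of highest ethanol intake among rhesus macaques whose nucleus accumbens core (NAcc) had been profiled by RNA-Seq. The 8 animals were those that the sample descriptions place in the VHD category (4 animals) and in the HD category (4 animals), out of 24 animals in the whole series. The remaining animals were 8 controls and 8 low or binge drinkers, given here as LD, and they serve only as background. Every animal was an unrelated adult male measured once. All drinkers were induced to drink over 4 months and then had open access to 4% (w/v) ethanol beside water for 22 h a day over 12 months, whereas controls went through the same procedures with water at both spouts and received a 10% maltose dextrin solution to match the calories. Tissue was collected without imposed abstinence. HD and VHD therefore share the ethanol solution, the schedule and the duration, and differ by how much the animals chose to drink. The comparison asks whether the transcriptome of the NAcc core separates the 2 categories, and which cell types and pathways carry the difference.

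The NAcc core is a part of the ventral striatum that links reward and motivation to action. Most of its neurons are GABAergic medium spiny neurons, which fall into a direct-pathway type expressing the D1 dopamine receptor, dynorphin and substance P, and an indirect-pathway type expressing the D2 dopamine receptor, enkephalin and an adenosine receptor. They receive glutamate from cortex, amygdala, hippocampus and thalamus and dopamine from the midbrain, and the remaining cells are interneurons, astrocytes, oligodendrocytes, their precursors, microglia and vascular cells.

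Average daily ethanol intake in the sample descriptions was 2.74, 3.09, 2.82 and 3.01 g/kg in HD animals 1 to 4 and 3.78, 3.28, 3.09 and 3.32 g/kg in VHD animals 1 to 4. The ranges met at 3.09 g/kg, the value of HD animal 2 and of VHD animal 3. In both categories, animals 1 and 2 came from cohort 5 and animals 3 and 4 from cohort 7a, so category and cohort were balanced. Each sample was about 1 cubic mm of dissected core and held all cell types of that tissue. The values examined are the TPM deposited by the authors, in which transcripts of each animal are scaled to a total of 1000000, so that every value is a share of that total. The depth of each library is not given in the sources used here and the table holds no counts, so no counting error is given. Differences are log2 fold changes of TPM + 1, VHD minus HD, for the 9197 genes that averaged 10 TPM or more across the whole series, and adjusted p-values are from limma with the Benjamini-Hochberg method. Means are given ± SD over 4 animals throughout.

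The HD animals resembled one another more closely than the VHD animals did. Pearson correlations across the tested genes, on the log2 scale, lay between 0.973 and 0.985 for pairs within HD, between 0.929 and 0.977 within VHD and between 0.922 and 0.971 across the categories. Pairs within LD lay between 0.926 and 0.989 and pairs within controls between 0.821 and 0.99. The median was 0.982 within HD, 0.964 within VHD, 0.962 within LD and 0.947 within controls. The SD over 4 animals was larger in VHD than in HD for 7887 of 9197 genes (85.8%), with a median of 0.34 in VHD, 0.14 in HD, 0.28 in the 8 controls and 0.26 in the 8 LD animals on the log2 scale. The HD animals all lay between −23.2 and −20.1 on the first principal component of the 8 animals (57.6% of the variance), while VHD animals 1 to 4 lay at 5.94, −6.18, 33.2 and 54.3, and on the second component (22.5%) VHD animal 2 stood apart at −40.4. VHD animal 4 had the fewest genes of at least 10 TPM, 7593 against 8978 to 9145 in the HD animals, and VHD animal 2 the most, 9624. Cytosolic ribosomal protein genes took 9.23%, 8.68%, 8.12% and 7.99% of the total in HD animals 1 to 4 and 13.3%, 11.0%, 17.4% and 18.7% in VHD animals 1 to 4. That share ran from 7.87% to 15.9% in controls and from 8.33% to 17.3% in LD animals, so high values were not confined to VHD. TPM is a share of a fixed total, so a larger ribosomal share goes with lower values elsewhere, and its part in the differences was tested only by leaving those genes out of the total.

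A large number of genes separated the categories at an adjusted p under 0.05, and most of them were lower in VHD. Of 9197 genes, 1746 were lower in VHD (19.0% of all genes tested, median log2 fold change −0.74) and 440 were higher (4.78%, median 0.66). The fall was at least 1 on the log2 scale in 293 genes and the rise at least 1 in 32. Every VHD animal lay below every HD animal in 2114 genes (23.0%) and above every HD animal in 555 (6.03%). No gene reached an adjusted p under 0.001 in limma, the smallest value being 0.00268, and 3652 genes had an unadjusted p under 0.05, of which 780 were higher and 2872 lower. The publication does report genes at an FDR under 0.001 for this contrast, more of them higher in HD than in VHD. Its figures come from a separate analysis detailed in its supplement, which was not compared with the limma fit on TPM. The median over all 9197 genes was −0.23, which rescaling by a trimmed mean of M-values (TMM) moved to −0.035, and the calls were then 973 higher and 1433 lower in place of 440 and 1746. Medians of gene lists are therefore given with their difference from that of all genes. Counts of called genes in a list, as deposited, are to be read beside the 19.0% lower and 4.78% higher of all genes. Counts after TMM rescaling are to be read beside the 1433 lower and 973 higher of 9197 genes. A model of all 24 animals, which share 1 estimate of the spread, called 269 genes higher and 1149 lower, and its adjusted p is given for the 8 animals' calls that it ended.

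**Figure D1:**
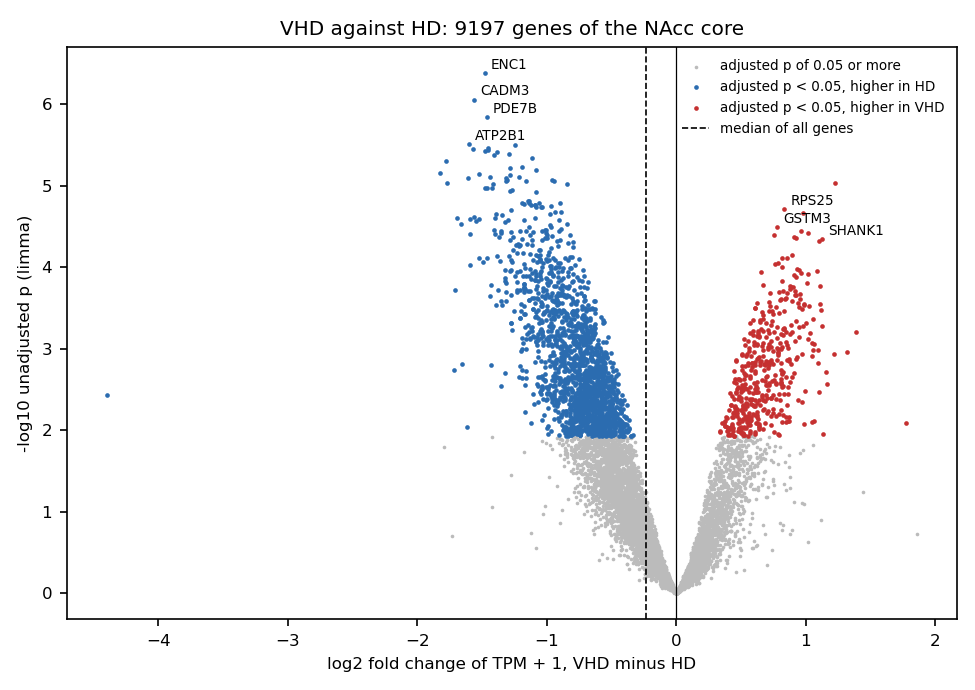
Each point is 1 of 9197 genes, with its log2 fold change of TPM + 1 (VHD minus HD, 4 animals each) on the horizontal axis and −log10 of its unadjusted limma p on the vertical axis. Genes at an adjusted p under 0.05 are blue where lower in VHD (1746) and red where higher (440), the dashed line marks the median of all genes at −0.23, and the labelled genes are among the 10 with the smallest p in each direction.

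Of the 10 genes with the smallest p among those lower in VHD, 8 are given here, and they encode transport proteins and neuronal surface or signalling proteins for the greater part. ENC1 stood at 352, 394, 382 and 400.5 TPM in HD animals 1 to 4 and at 161, 103, 139 and 151 TPM in VHD animals 1 to 4. ENC1 is an actin-associated protein of neurons, and its lowest HD value exceeded its highest VHD value more than 2-fold (log2 fold change −1.48, SE 0.15, adjusted p = 0.00268). ATP2B1 stood at 310.1, 241, 245 and 220.0 TPM in HD animals 1 to 4 and at 119.8, 86.2, 71.9 and 62.0 TPM in VHD animals 1 to 4. ATP2B1 is a plasma membrane calcium pump, and no VHD animal reached the lowest HD value (log2 fold change −1.60, SE 0.19, adjusted p = 0.00268 and 0.0523 with all 24 animals). The others averaged 588 ± 38.3 TPM in HD and 203 ± 53.7 TPM in VHD animals for CADM3, a synaptic adhesion molecule, and 98.6 ± 9.42 TPM in HD and 35.6 ± 7.85 TPM in VHD animals for PDE7B, a cAMP phosphodiesterase. SLC9A7, an exchanger of sodium for protons in the Golgi network, averaged 66.7 ± 10.1 TPM in HD and 22.2 ± 6.30 TPM in VHD animals. SORBS2, an actin-linked adaptor, averaged 59.7 ± 7.08 TPM in HD and 24.6 ± 3.41 TPM in VHD animals, PCSK2, a convertase that processes neuropeptide precursors, 146 ± 7.07 TPM in HD and 53.2 ± 16.5 TPM in VHD animals, and GPR158, an orphan receptor, 96.4 ± 12.5 TPM in HD and 36.8 ± 8.68 TPM in VHD animals. In all 8 genes the categories did not overlap, as in 23.0% of all genes in this direction. The log2 fold change lay between −1.60 and −1.25 and the adjusted p was 0.00268. This adjusted p stayed at or below 0.0158 on leaving out any 1 of the 8 animals. The genes were chosen by their p in these same animals, so these traits are not independent support. With all 24 animals in the model 5 of the 8 genes remained called, and the adjusted p was 0.0722 for PDE7B, 0.0580 for GPR158 and 0.0523 for ATP2B1.

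Among the 10 genes with the smallest p that were higher in VHD were ribosomal and respiratory chain genes. They too were chosen by their p in these animals, so a lack of overlap is not independent support. RPS25 stood at 633, 629.6, 555 and 569 TPM in HD animals 1 to 4 and at 1027, 964, 1102 and 1162 TPM in VHD animals 1 to 4, with no overlap (log2 fold change 0.83, SE 0.12, adjusted p = 0.00329). RPS25 and RPS12 encode proteins of the small ribosomal subunit, and RPS12 averaged 1629 ± 125 TPM in HD and 3201 ± 514 TPM in VHD animals (log2 fold change 0.96, SE 0.15, adjusted p = 0.00374). COX7B stood at 1026, 912, 940.4 and 953 TPM in HD animals 1 to 4 and at 1564, 1559, 2192 and 1954 TPM in VHD animals 1 to 4, again with no overlap (log2 fold change 0.91, SE 0.14, adjusted p = 0.00381). COX7B and COX6A1 are subunits of cytochrome c oxidase, and COX6A1 averaged 1383 ± 88.7 TPM in HD and 2646 ± 440.5 TPM in VHD animals (log2 fold change 0.92, SE 0.15, adjusted p = 0.00381). GSTM3, a glutathione transferase, averaged 359.8 ± 17.9 TPM in HD and 619 ± 58.4 TPM in VHD animals (log2 fold change 0.78, SE 0.12, adjusted p = 0.00374). C6orf48, a host of small nucleolar RNAs, averaged 267 ± 23.6 TPM in HD and 451 ± 30.1 TPM in VHD animals (log2 fold change 0.76, SE 0.12, adjusted p = 0.00376), and C1orf86 averaged 31.5 ± 2.82 TPM in HD and 63.3 ± 8.27 TPM in VHD animals (log2 fold change 0.98, SE 0.15, adjusted p = 0.00341 and 0.0505 with all 24 animals). CCDC167 averaged 23.1 ± 1.59 TPM in HD and 48.1 ± 8.54 TPM in VHD animals (log2 fold change 1.01, SE 0.16, adjusted p = 0.00374). SHANK1, a postsynaptic scaffold, was also among them. SHANK1 stood at 33.4, 32.2, 37.5 and 38.4 TPM in HD animals 1 to 4 and at 95.8, 98.6, 64.9 and 60.6 TPM in VHD animals 1 to 4, so that the 2 VHD animals of cohort 5 carried the higher values (log2 fold change 1.13, SE 0.18, adjusted p = 0.00383 and 0.0597 with all 24 animals).

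All 13 of 13 tested genes of medium spiny neurons fell in VHD, against 19.0% of all genes. No VHD animal overlapped an HD animal in any of them, against 23.0% of all genes in this direction. The median log2 fold change was −1.11, −0.88 relative to all genes and −0.91 after TMM rescaling, with which 9 of the 13 were called. With all 24 animals in the model only 1 of the 13 was called, against 1149 of all 9197 genes called lower. The calls of this list thus rest on the spread within the 8 animals. PPP1R1B stood at 3659, 3152, 3625 and 3797 TPM in HD animals 1 to 4 and at 1977, 1051, 1695 and 2589.6 TPM in VHD animals 1 to 4. PPP1R1B encodes DARPP-32, the phosphoprotein through which dopamine acts on these neurons (log2 fold change −1.03, SE 0.23, adjusted p = 0.0113, 0.110 after TMM rescaling and 0.166 with all 24 animals). PDE10A stood at 134, 84.1, 78.2 and 78.7 TPM in HD animals 1 to 4 and at 39.6, 24.3, 23.6 and 32.3 TPM in VHD animals 1 to 4. PDE10A, a striatal phosphodiesterase of cyclic nucleotides, had the lowest log2 fold change of the list (log2 fold change −1.61, SE 0.21, adjusted p = 0.00268 and 0.110 with all 24 animals), and HD animal 1 lay above the other HD animals. FOXP1, a transcription factor of striatal projection neurons, averaged 39.8 ± 6.53 TPM in HD and 14.4 ± 2.48 TPM in VHD animals (log2 fold change −1.41, SE 0.18, adjusted p = 0.00268 and 0.0591 with all 24 animals). As a mean over the list, centred on the 24 animals, the level was 0.59 to 0.84 in HD and −0.82 to −0.12 in VHD animals, with VHD animal 1 nearest to the HD animals and VHD animal 2 furthest. In bulk tissue, fewer cells of a type and less RNA per cell cannot be told apart.

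Tested genes of both output pathways fell, TAC1 excepted. In the direct pathway 3 of 4 tested genes fell, and in the indirect pathway 6 of 6, with medians of −1.0 (−0.77 relative to all genes) and −1.20 (−0.96 relative to all genes). DRD1 stood at 231, 207, 203 and 171 TPM in HD animals 1 to 4 and at 125, 91.2, 76.8 and 65.2 TPM in VHD animals 1 to 4, with no overlap (log2 fold change −1.20, SE 0.19, adjusted p = 0.00374 and 0.165 with all 24 animals). DRD1 encodes the D1 dopamine receptor, and CHRM4, a muscarinic receptor of the same neurons, averaged 98.5 ± 6.14 TPM in HD and 41.2 ± 11.0 TPM in VHD animals (log2 fold change −1.27, SE 0.18, adjusted p = 0.00279 and 0.0603 with all 24 animals). PDYN, the dynorphin precursor, averaged 662 ± 11.4 TPM in HD and 397 ± 143 TPM in VHD animals (log2 fold change −0.80, SE 0.20, adjusted p = 0.0167, 0.0677 after TMM rescaling, 0.355 with all 24 animals and 0.0611 without VHD animal 3), and VHD animal 1 was at 606 TPM, close to the HD animals. TAC1, the precursor of substance P, stood at 741, 421, 526.3 and 646 TPM in the HD and 606, 515, 490.2 and 586 TPM in the VHD animals, and these values overlapped (log2 fold change −0.061, SE 0.17, adjusted p = 0.816, sign reversed after TMM rescaling). DRD2 stood at 358, 371, 361 and 333 TPM in HD animals 1 to 4 and at 216, 80.6, 140.1 and 239 TPM in VHD animals 1 to 4. DRD2 encodes the D2 dopamine receptor, and VHD animal 2 was the lowest (log2 fold change −1.19, SE 0.27, adjusted p = 0.0126, 0.0785 after TMM rescaling, 0.0854 with all 24 animals and 0.0530 without VHD animal 3). PENK, the enkephalin precursor, averaged 3734 ± 503 TPM in HD and 1856 ± 480.2 TPM in VHD animals (log2 fold change −1.04, SE 0.21, adjusted p = 0.00743, 0.0743 after TMM rescaling and 0.207 with all 24 animals). ADORA2A, the adenosine receptor of this pathway, averaged 431 ± 64.8 TPM in HD and 192 ± 56.6 TPM in VHD animals (log2 fold change −1.20, SE 0.21, adjusted p = 0.00530 and 0.198 with all 24 animals), and GPR6, an orphan receptor of the same neurons, had the smallest p of the list at 208 ± 25.8 TPM in HD and 72.2 ± 28.9 TPM in VHD animals (log2 fold change −1.59, SE 0.24, adjusted p = 0.00347 and 0.0856 with all 24 animals).

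Other neuronal lists moved less uniformly. Of 14 pan-neuronal genes 6 fell (42.9%, against the 19.0% of all genes) and 0 rose, with a median of −0.60 (−0.37 relative to all genes). ENO2, a neuronal enolase, averaged 1410.0 ± 128 TPM in HD and 761 ± 148 TPM in VHD animals (log2 fold change −0.91, SE 0.16, adjusted p = 0.00519), and SNAP25, a SNARE protein of nerve terminals, averaged 1586 ± 260.3 TPM in HD and 831 ± 249 TPM in VHD animals (log2 fold change −0.97, SE 0.21, adjusted p = 0.0101). Of 8 striatal interneuron genes that could be tested 2 fell (25%, near the 19.0% of all genes). Among them was KIT at 29.6 ± 2.61 TPM in HD and 17.2 ± 6.70 TPM in VHD animals (log2 fold change −0.82, SE 0.24, adjusted p = 0.0315, 0.0989 with all 24 animals and 0.0946 without VHD animal 3). The median of −0.31 (−0.080 relative to all genes) was near that of all genes. CHAT, the acetylcholine-synthesizing enzyme of cholinergic interneurons, lay under the 10 TPM limit and was not tested, at 7.09, 6.38, 8.69 and 4.86 TPM in the HD and 6.85, 17.5, 4.38 and 1.81 TPM in the VHD animals. Genes of cortical excitatory neurons were uneven between animals. SLC17A7, a vesicular glutamate transporter of cortical neurons, stood at 4.69, 84.9, 0.866 and 186 TPM in the HD and 10.6, 1.14, 1.75 and 19.4 TPM in the VHD animals, so HD animals 2 and 4 held most of it and the categories overlapped (log2 fold change −1.73, SE 1.27, adjusted p = 0.323). NRGN, a postsynaptic calmodulin-binding protein abundant in cortex and striatum, averaged 2152 ± 250.2 TPM in HD and 1229 ± 670.3 TPM in VHD animals (log2 fold change −0.95, SE 0.29, adjusted p = 0.0374, 0.210 after TMM rescaling, 0.125 with all 24 animals and 0.104 without VHD animal 3). Neither cortical gene was called after TMM rescaling, and the 6 other genes of that list were below the limit. SLC17A7 also reached 348.4 TPM among controls and 722.5 TPM among LD animals. Whether any sample held cortical tissue, and whether that bears on the other neuronal results, was not tested. Without HD animals 2 and 4 the median of the medium spiny neuron list was −1.12 and that of the synaptic vesicle list −0.70. Only 34 genes then remained called in the whole table.

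Some glial genes were higher in VHD. Of 9 microglial genes tested 5 rose (55.6%, against 4.78% of all genes) and 0 fell, with a median of 0.64 (0.88 relative to all genes). AIF1 stood at 30.3, 39.0, 24.7 and 31.5 TPM in HD animals 1 to 4 and at 44.3, 66.7, 81.3 and 89.7 TPM in VHD animals 1 to 4, with no overlap (log2 fold change 1.11, SE 0.22, adjusted p = 0.00726). AIF1 is a calcium-binding protein of microglia, C1QA, a complement subunit, averaged 58.1 ± 5.54 TPM in HD and 103 ± 21.2 TPM in VHD animals (log2 fold change 0.79, SE 0.16, adjusted p = 0.00798 and 0.0580 with all 24 animals), and TREM2, a microglial lipid receptor, averaged 15.3 ± 2.87 TPM in HD and 28.5 ± 7.77 TPM in VHD animals (log2 fold change 0.83, SE 0.23, adjusted p = 0.0246 and 0.0943 without VHD animal 3). CX3CR1, the fractalkine receptor of microglia, stood at 28.5, 36.03, 27.1 and 25.1 TPM in the HD and 26.4, 39.8, 45.9 and 14 TPM in the VHD animals, where VHD animal 3 was the highest and VHD animal 4 the lowest of all 8 (log2 fold change −0.0060, SE 0.30, adjusted p = 0.993, sign reversed after TMM rescaling). The summed level of the list was 442.5 to 568.9 TPM in HD and 561.3 to 936.9 TPM in VHD animals, which overlapped. TMEM119, ITGAM, CD68 and PTPRC, the other 4 genes of the list, were under the 10 TPM limit.

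Astrocyte genes rose in 3 of 13 (23.1%, against 4.78% of all genes), with a median of 0.22 (0.45 relative to all genes). After TMM rescaling 5 of 13 rose, with a median of 0.42. GFAP stood at 1109.5, 1384, 548 and 1641 TPM in HD animals 1 to 4 and at 2277, 4037, 2795 and 2536 TPM in VHD animals 1 to 4. GFAP, the intermediate filament of astrocytes, did not overlap between categories, and VHD animal 2 was the highest (log2 fold change 1.39, SE 0.30, adjusted p = 0.0101 and 0.112 with all 24 animals). S100B, a calcium-binding protein of astrocytes, averaged 467 ± 80.2 TPM in HD and 1007 ± 238 TPM in VHD animals (log2 fold change 1.09, SE 0.19, adjusted p = 0.00530). The water channel AQP4 stood at 201, 137, 119.7 and 149.9 TPM in the HD and 214, 419.5, 189 and 119.8 TPM in the VHD animals, with overlap (log2 fold change 0.51, SE 0.31, adjusted p = 0.232), and passed after TMM rescaling (adjusted p = 0.0472). Summed over the list, astrocyte genes made up 2867 to 4764 TPM in HD and 5633 to 8903 TPM in VHD animals, and controls ran from 3742 to 10869 TPM. Abundant genes such as GFAP weigh most in that sum. As a mean over the list, centred on the 24 animals, the level was −0.518 to 0.0608 in HD and −0.286 to 0.585 in VHD animals, which overlapped.

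Among oligodendrocyte genes, 1 of 15 rose (6.67%, near the 4.78% of all genes) and 0 fell. Their median of −0.13 (0.10 relative to all genes) turned to 0.072 after TMM rescaling. The one was MBP, a myelin protein, at 410.5 ± 111 TPM in HD and 746 ± 224 TPM in VHD animals (log2 fold change 0.84, SE 0.26, adjusted p = 0.0361, 0.225 with all 24 animals and 0.123 without VHD animal 3). In the precursor list 0 of 6 genes passed, with SOX10 at 87.0 ± 28.6 TPM in HD and 60.9 ± 13.7 TPM in VHD animals and PDGFRA at 22.5 ± 2.00 TPM in HD and 18.8 ± 9.12 TPM in VHD animals. Of 4 endothelial genes 1 fell (25%, near the 19.0% of all genes). This was ESAM, a junction protein, at 38.8 ± 6.48 TPM in HD and 27.1 ± 3.53 TPM in VHD animals (log2 fold change −0.50, SE 0.16, adjusted p = 0.0464, 0.275 after TMM rescaling, 0.115 with all 24 animals and 0.135 without HD animal 1). CLDN5, a tight junction protein of the blood-brain barrier, stood at 67.1 ± 11.0 TPM in HD and 60.8 ± 22.3 TPM in VHD animals (log2 fold change −0.20, SE 0.23, adjusted p = 0.548), with its sign reversed after TMM rescaling. In the pericyte list 0 of 4 passed, with RGS5 at 54.1 ± 11.1 TPM in HD and 44.9 ± 5.75 TPM in VHD animals and PDGFRB at 17.3 ± 3.30 TPM in HD and 15.8 ± 4.07 TPM in VHD animals. Ependymal and blood genes were all under the limit, with FOXJ1 at 0.603 to 3.01 TPM and HBB at 0.666 to 6.61 TPM over the 8 animals, and their summed levels were 3.26 to 10.4 TPM in HD against 8.44 to 31.2 TPM in VHD animals for the ependymal and choroid plexus list and 0.666 to 6.64 TPM against 0.853 to 4.604 TPM for the blood list.

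**Figure D2:**
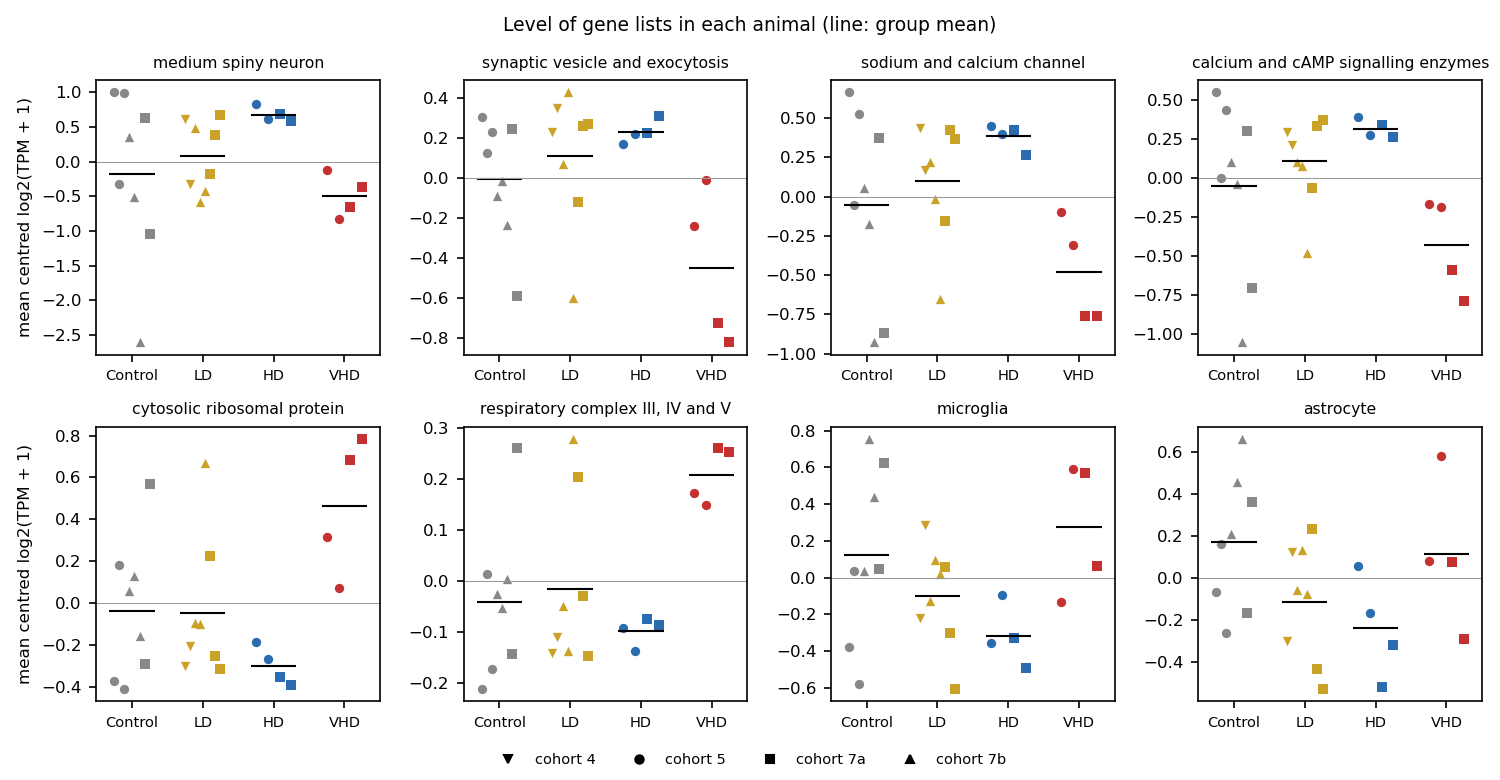
Each point is 1 animal and gives the mean over the tested genes of a list of log2(TPM + 1) centred on the 24 animals, with symbols for cohorts and a line at the group mean. In the 6 panels of neuronal, channel, signalling, ribosomal and respiratory lists no VHD animal (red) overlaps an HD animal (blue), whereas in the microglial and astrocyte panels the categories overlap.

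Receptors for glutamate fell in part. Of 10 AMPA, kainate and NMDA receptor subunits tested 4 fell and 0 rose, with a median of −0.65 (−0.42 relative to all genes), and of 4 metabotropic receptors all 4 fell, with a median of −1.01 (−0.78 relative to all genes). GRIN1 stood at 566, 622, 751 and 737 TPM in HD animals 1 to 4 and at 476, 328, 324 and 302 TPM in VHD animals 1 to 4. GRIN1 is the obligatory NMDA receptor subunit, and the values did not overlap (log2 fold change −0.92, SE 0.17, adjusted p = 0.00549 and 0.0529 with all 24 animals). The AMPA receptor subunits averaged 192 ± 30.4 TPM in HD and 103 ± 43.2 TPM in VHD animals (log2 fold change −1.0, SE 0.28, adjusted p = 0.0267, 0.0518 with all 24 animals and 0.0877 without VHD animal 3) for GRIA1, 163 ± 18.9 TPM in HD and 85.3 ± 36.5 TPM in VHD animals (log2 fold change −1.03, SE 0.28, adjusted p = 0.0229, 0.0811 with all 24 animals and 0.0801 without VHD animal 3) for GRIA2 and 76.0 ± 7.20 TPM in HD and 36.8 ± 11.2 TPM in VHD animals (log2 fold change −1.07, SE 0.21, adjusted p = 0.00679) for GRIA3. GRIA4 differed from them, at 10.2, 8.21, 10.3 and 7.88 TPM in the HD and 9.87, 25.3, 11.2 and 4.03 TPM in the VHD animals, with VHD animal 2 the highest and VHD animal 4 the lowest of the 8 (log2 fold change 0.19, SE 0.40, adjusted p = 0.741). GRM5 stood at 77.8, 64.7, 71.2 and 59.8 TPM in HD animals 1 to 4 and at 37.1, 36.2, 22.7 and 18.4 TPM in VHD animals 1 to 4. GRM5 is a metabotropic receptor of spiny neurons whose highest VHD value was below its lowest HD value (log2 fold change −1.28, SE 0.22, adjusted p = 0.00483), and GRM4, a presynaptic one, averaged 45.2 ± 5.21 TPM in HD and 21.6 ± 4.97 TPM in VHD animals (log2 fold change −1.05, SE 0.18, adjusted p = 0.00487 and 0.0670 with all 24 animals).

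Of 13 postsynaptic scaffold genes tested 3 fell and 1 rose (23.1% and 7.69%, close to the 19.0% and 4.78% of all genes), and the median of −0.069 (0.16 relative to all genes) was 0.14 after TMM rescaling. HOMER1, which binds group I metabotropic receptors, averaged 50.0 ± 7.68 TPM in HD and 24.7 ± 6.47 TPM in VHD animals (log2 fold change −1.01, SE 0.19, adjusted p = 0.00627 and 0.117 with all 24 animals), in contrast to SHANK1 above.

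For inhibitory transmission, 7 of 15 GABA-A and glycine receptor genes fell and 0 rose, with a median of −0.85 (−0.62 relative to all genes). GLRA2, a glycine receptor subunit, stood at 44.99, 52.5, 38.7 and 48.9 TPM in the HD and 24.5, 25.7, 20.8 and 19.5 TPM in the VHD animals, with no overlap (log2 fold change −1.0, SE 0.16, adjusted p = 0.00376 and 0.0973 with all 24 animals). GABRD, a subunit of extrasynaptic receptors, averaged 256 ± 47.4 TPM in HD and 136 ± 39.3 TPM in VHD animals (log2 fold change −0.95, SE 0.22, adjusted p = 0.0138, 0.102 after TMM rescaling, 0.199 with all 24 animals and 0.0502 without HD animal 3). Of 8 genes of GABA synthesis, transport and GABA-B receptors 3 fell. SLC32A1, the vesicular transporter that loads GABA, averaged 389 ± 35.0 TPM in HD and 202 ± 49.8 TPM in VHD animals (log2 fold change −0.97, SE 0.17, adjusted p = 0.00525 and 0.0666 with all 24 animals). The GABA-synthesizing enzymes averaged 295 ± 32.4 TPM in HD and 148 ± 59.6 TPM in VHD animals (log2 fold change −1.08, SE 0.25, adjusted p = 0.0119, 0.0505 with all 24 animals and 0.0530 without VHD animal 3) for GAD2 and 232 ± 12.5 TPM in HD and 160.3 ± 85.7 TPM in VHD animals (log2 fold change −0.68, SE 0.29, adjusted p = 0.107) for GAD1, the second of which had its highest value of all 8 animals, 275 TPM, in VHD animal 2.

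The list of synaptic vesicle and exocytosis genes held 21 of 33 that fell (63.6%) and 0 that rose, with a median of −0.79 (−0.56 relative to all genes). SV2B stood at 54.0, 59.6, 42.0 and 60.0 TPM in HD animals 1 to 4 and at 21.8, 11.6, 9.41 and 17.4 TPM in VHD animals 1 to 4. SV2B is a vesicle glycoprotein, and its fall was the steepest of this list (log2 fold change −1.83, SE 0.24, adjusted p = 0.00268 and 0.0515 with all 24 animals). SV2C, its striatal relative, averaged 62.4 ± 9.32 TPM in HD and 21.5 ± 7.13 TPM in VHD animals (log2 fold change −1.54, SE 0.23, adjusted p = 0.00347 and 0.0579 with all 24 animals), and SYT1, a calcium sensor of release, averaged 366 ± 45.4 TPM in HD and 193 ± 94.4 TPM in VHD animals (log2 fold change −1.04, SE 0.28, adjusted p = 0.0234, 0.0578 with all 24 animals and 0.0877 without VHD animal 3). VHD animals 3 and 4, both of cohort 7a, had the lowest levels of the list, −0.72 and −0.82, against −0.24 and −0.0090 in VHD animals 1 and 2. Of 19 synaptic adhesion genes 10 fell and 0 rose (median −0.71, −0.48 relative to all genes), with CADM3 the one of smallest p, and NRXN3, a presynaptic neurexin, averaged 53.4 ± 1.41 TPM in HD and 26.2 ± 10.7 TPM in VHD animals (log2 fold change −1.09, SE 0.24, adjusted p = 0.0113 and 0.0502 without VHD animal 3).

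Many ion channel genes were lower. Of 20 voltage-gated potassium channel genes 8 fell (median −0.71, −0.48 relative to all genes) and of 19 sodium and calcium channel genes 12 fell (median −0.97, −0.74 relative to all genes), and 0 of either rose. KCNA4 stood at 112, 101, 99.4 and 74.9 TPM in HD animals 1 to 4 and at 51.3, 31.9, 29.5 and 27.9 TPM in VHD animals 1 to 4, with no overlap (log2 fold change −1.46, SE 0.20, adjusted p = 0.00274 and 0.0766 with all 24 animals). KCNA4 carries a fast inactivating current, and KCNQ5, a subunit of the M-type current, averaged 54.3 ± 8.61 TPM in HD and 20.5 ± 6.77 TPM in VHD animals (log2 fold change −1.39, SE 0.21, adjusted p = 0.00343 and 0.0951 with all 24 animals). SCN2A, a pore-forming sodium channel subunit, averaged 94.0 ± 11.0 TPM in HD and 38.7 ± 15.9 TPM in VHD animals (log2 fold change −1.35, SE 0.26, adjusted p = 0.00699 and 0.0518 with all 24 animals), and SCN4B, a striatal auxiliary subunit, stood at 514, 643, 403 and 409 TPM in the HD and 206, 61.5, 126 and 343 TPM in the VHD animals, where VHD animal 4 came nearest to the HD animals (log2 fold change −1.65, SE 0.40, adjusted p = 0.0158, 0.0645 after TMM rescaling, 0.0553 with all 24 animals and 0.0644 without VHD animal 3). CACNB1, an auxiliary calcium channel subunit, averaged 116 ± 9.12 TPM in HD and 53.2 ± 11.9 TPM in VHD animals (log2 fold change −1.14, SE 0.16, adjusted p = 0.00318).

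Part of the neuromodulator receptors and of the enzymes downstream of them fell as well. Of 16 genes of dopamine, opioid, cannabinoid and adenosine signalling 10 fell and 0 rose (median −0.82, −0.59 relative to all genes). OPRK1 stood at 33.7, 37.5, 38.3 and 25.6 TPM in HD animals 1 to 4 and at 17.4, 9.76, 10.0 and 8.44 TPM in VHD animals 1 to 4. OPRK1 encodes the kappa opioid receptor, the receptor of dynorphin, and had the smallest p of this list (log2 fold change −1.52, SE 0.23, adjusted p = 0.00347). CNR1, the cannabinoid receptor of nerve terminals, averaged 43.7 ± 12.4 TPM in HD and 18.5 ± 6.17 TPM in VHD animals (log2 fold change −1.21, SE 0.25, adjusted p = 0.00853 and 0.0656 with all 24 animals). Of 27 calcium and cAMP signalling enzymes 18 fell and 0 rose (median −0.86, −0.63 relative to all genes), ATP2B1 having the smallest p. PPP3CA, the catalytic subunit of calcineurin, averaged 579.6 ± 107 TPM in HD and 233 ± 52.9 TPM in VHD animals (log2 fold change −1.32, SE 0.18, adjusted p = 0.00268 and 0.0986 with all 24 animals). RGS4, which shortens G protein signalling and belongs to none of the lists, averaged 142 ± 43.8 TPM in HD and 43.6 ± 13.7 TPM in VHD animals (log2 fold change −1.70, SE 0.26, adjusted p = 0.00347 and 0.0505 with all 24 animals).

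Immediate early genes, which neurons induce with activity, fell in 7 of 15 (46.7%) and rose in 0, with a median of −0.72 (−0.49 relative to all genes). EGR1 stood at 97.6, 76.8, 60.1 and 125 TPM in HD animals 1 to 4 and at 49.0, 30.6, 23.99 and 37.8 TPM in VHD animals 1 to 4. EGR1 is an activity-induced transcription factor, and the values did not overlap (log2 fold change −1.32, SE 0.25, adjusted p = 0.00645 and 0.0701 with all 24 animals). FOSB averaged 16.5 ± 1.05 TPM in HD and 6.68 ± 2.67 TPM in VHD animals (log2 fold change −1.25, SE 0.25, adjusted p = 0.00778 and 0.0944 with all 24 animals), while FOS stood at 16.7 ± 2.95 TPM in HD and 11.7 ± 4.57 TPM in VHD animals (log2 fold change −0.53, SE 0.25, adjusted p = 0.137). With TMM rescaling 2 of the 15 were called lower, against 1433 of all 9197 genes, and the median was −0.52.

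**Figure D3:**
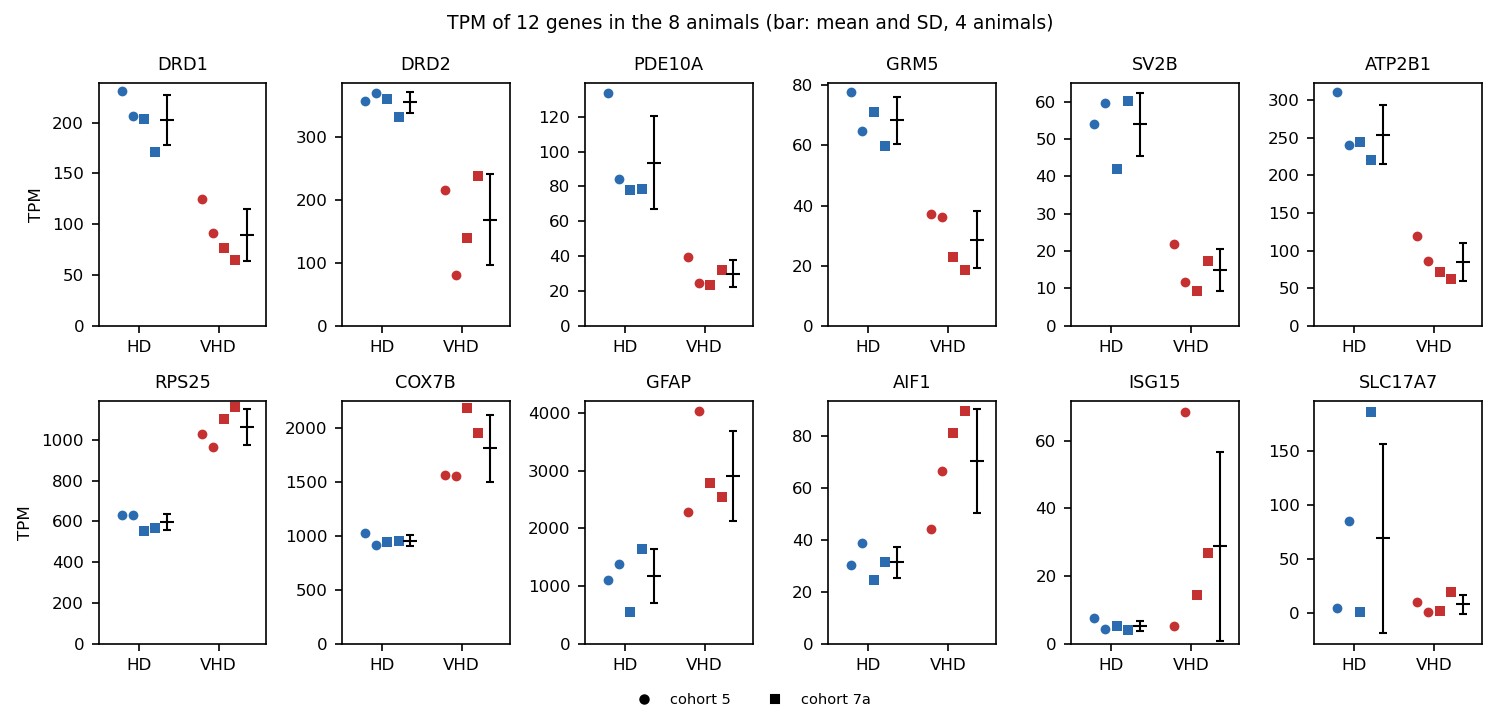
TPM of 12 genes in each of the 4 HD (blue) and 4 VHD (red) animals, on linear axes, with circles for cohort 5, squares for cohort 7a and bars for the mean and SD of 4 animals. DRD1, DRD2, PDE10A, GRM5, SV2B and ATP2B1 are lower in every VHD animal than in any HD animal, RPS25, COX7B, GFAP and AIF1 are higher in every VHD animal, and ISG15 and SLC17A7 rest on some animals of one category.

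Cytosolic ribosomal protein genes rose almost throughout. Of 80 cytosolic ribosomal protein genes tested 75 rose (93.8%, against 4.78% of all genes) and 0 fell, all 80 had positive log2 fold changes from 0.075 to 1.05, and in 69 of them every VHD animal exceeded every HD animal, against 6.03% of all genes. The median was 0.80, 1.03 relative to all genes, and 62 of the 80 were called after TMM rescaling, where the median was 1.0. RPL39, a large subunit protein, averaged 599 ± 66.3 TPM in HD and 1060.1 ± 137 TPM in VHD animals (log2 fold change 0.82, SE 0.14, adjusted p = 0.00483). The 5 not called were RPL15, RPL26L1, RPLP2, RPS15 and RPS15A, the last of which stood at 1030.5, 995, 906 and 557 TPM in the HD and 967, 703, 1217 and 2039 TPM in the VHD animals (log2 fold change 0.43, SE 0.29, adjusted p = 0.297). The level of the list was −0.39 to −0.18 in HD animals and 0.31, 0.072, 0.68 and 0.78 in VHD animals 1 to 4, so that the 2 VHD animals of cohort 7a stood highest. Levels ran from −0.41 to 0.57 in controls and from −0.32 to 0.67 in LD animals, which overlapped the VHD range.

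Of mitochondrial ribosomal protein genes 10 of 72 rose and 2 fell (13.9% and 2.78%, against 4.78% and 19.0% of all genes), with a median of 0.040 (0.27 relative to all genes). After TMM rescaling 22 rose and 0 fell, with a median of 0.24. The one of smallest p was MRPL53 at 164 ± 3.50 TPM in HD and 245 ± 27.1 TPM in VHD animals (log2 fold change 0.57, SE 0.12, adjusted p = 0.00919). Of 55 translation initiation and elongation factor genes 4 rose (7.27%, against 4.78% of all genes) and 6 fell (10.9%, below the 19.0% of all genes), with a median of −0.13 (0.10 relative to all genes) that turned to 0.062 after TMM rescaling, where 6 rose and 4 fell. On the scale as deposited, the 4 that rose were all elongation factors, among them EEF1B2 at 464 ± 46.6 TPM in HD and 728 ± 112 TPM in VHD animals (log2 fold change 0.64, SE 0.14, adjusted p = 0.0107) and EEF1A1, which brings aminoacyl-tRNA to the ribosome, at 1821 ± 260.0 TPM in HD and 2982 ± 470.2 TPM in VHD animals (log2 fold change 0.71, SE 0.16, adjusted p = 0.0127 and 0.0539 without HD animal 3). The 6 that fell were EIF4G1, EIF4G3, EIF4B, EIF4H and EIF3B, all initiation factors, and EIF4ENIF1, which binds one of them, with the scaffold EIF4G3 at 54.5 ± 2.36 TPM in HD and 33.1 ± 15.0 TPM in VHD animals (log2 fold change −0.80, SE 0.25, adjusted p = 0.0401 and 0.133 without VHD animal 3). In the signal recognition particle and translocon list 1 of 17 rose and 1 fell (5.88% each, against 4.78% and 19.0% of all genes). The latter was SEC61A1, the channel-forming subunit, at 79.9 ± 7.25 TPM in HD and 49.8 ± 11.0 TPM in VHD animals (log2 fold change −0.69, SE 0.17, adjusted p = 0.0153 and 0.0582 without HD animal 3). The median of that list, −0.024 (0.21 relative to all genes), changed sign after TMM rescaling.

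Many nuclear-encoded respiratory chain genes rose as well. In complex I 15 of 37 rose and 1 fell (median 0.33, 0.56 relative to all genes), and in complexes III to V 17 of 33 rose and 1 fell (median 0.41, 0.64 relative to all genes). NDUFB9 stood at 765, 644, 659.7 and 692 TPM in HD animals 1 to 4 and at 967, 1112, 1513 and 1483 TPM in VHD animals 1 to 4. NDUFB9 is an accessory subunit of complex I, and the values did not overlap (log2 fold change 0.85, SE 0.16, adjusted p = 0.00649). ATP5O, a stalk subunit of ATP synthase, averaged 859.6 ± 76.1 TPM in HD and 1308 ± 46.3 TPM in VHD animals (log2 fold change 0.61, SE 0.12, adjusted p = 0.00761). The exceptions were catalytic or core subunits, NDUFV1 at 342 ± 44.2 TPM in HD and 234 ± 13.1 TPM in VHD animals (log2 fold change −0.54, SE 0.13, adjusted p = 0.0137, 0.171 after TMM rescaling and 0.0572 without HD animal 3) and ATP5B at 1006 ± 49.8 TPM in HD and 717 ± 159 TPM in VHD animals (log2 fold change −0.52, SE 0.16, adjusted p = 0.0393, 0.170 after TMM rescaling and 0.126 without VHD animal 3). Levels of the list of complexes III to V were −0.14 to −0.075 in HD and 0.15 to 0.26 in VHD animals, without overlap. Of 36 proteasome genes 2 rose and 2 fell (5.56% each, against 4.78% and 19.0% of all genes), with a median of 0.0069 (0.24 relative to all genes). After TMM rescaling 6 rose and 3 fell, with a median of 0.21. On the scale as deposited, the 2 that rose, PSMB9 and PSMB10, are subunits of the immunoproteasome, and the 2 that fell, PSMD3 and PSMD11, belong to the regulatory particle. PSMB10 averaged 114 ± 24.3 TPM in HD and 183 ± 25.5 TPM in VHD animals (log2 fold change 0.69, SE 0.17, adjusted p = 0.0151, 0.0600 with all 24 animals and 0.0554 without HD animal 2).

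**Figure D4:**
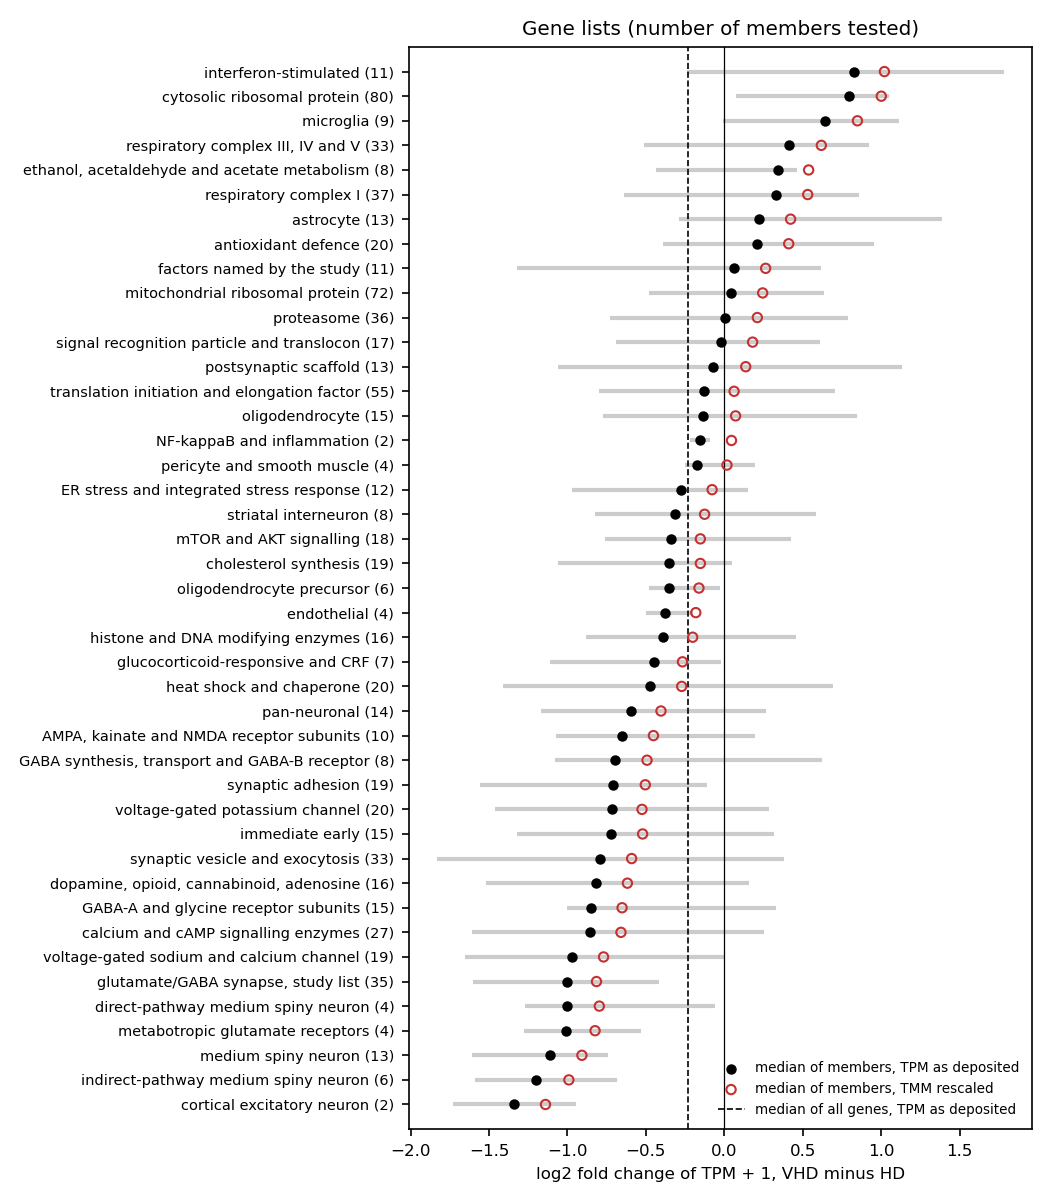
For each of 43 gene lists with a tested member (number in brackets), the black point is the median log2 fold change of its members (VHD minus HD), the grey line runs from the lowest to the highest member and the red circle is the median after TMM rescaling. Neuronal and synaptic lists, that of postsynaptic scaffolds excepted, lie left of the median of all genes (dashed line, −0.23), and interferon-stimulated, ribosomal, microglial and respiratory lists lie right of 0 under both scalings.

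Stress and immune lists diverged. Of 20 heat shock and chaperone genes 9 fell and 0 rose (median −0.48, −0.24 relative to all genes). HSPH1, a chaperone of the Hsp110 family, stood at 354, 374, 349.9 and 264 TPM in the HD and 167, 166, 104 and 84.1 TPM in the VHD animals with no overlap (log2 fold change −1.41, SE 0.22, adjusted p = 0.00374), and HSPA5, the endoplasmic reticulum chaperone BiP, averaged 229.7 ± 22.3 TPM in HD and 119 ± 32.2 TPM in VHD animals (log2 fold change −0.97, SE 0.18, adjusted p = 0.00573). HSPA5 was the 1 of 12 genes of the endoplasmic reticulum and integrated stress response list that fell (8.33%, below the 19.0% of all genes). Of 11 interferon-stimulated genes 5 rose and 0 fell, with a median of 0.83 (1.06 relative to all genes) and of 0.43 without VHD animals 2 and 4, and 8 rose after TMM rescaling. B2M, the light chain of MHC class I, averaged 421 ± 69.9 TPM in HD and 851 ± 227.1 TPM in VHD animals (log2 fold change 0.99, SE 0.19, adjusted p = 0.00723). ISG15 stood at 7.54, 4.25, 5.09 and 3.96 TPM in HD animals 1 to 4 and at 5.26, 68.5, 14.4 and 26.8 TPM in VHD animals 1 to 4. ISG15, a ubiquitin-like interferon product, was high in VHD animal 2 and not in VHD animal 1 (log2 fold change 1.78, SE 0.56, adjusted p = 0.0401 and 0.0940 without HD animal 4). IFI27 averaged 38.5 ± 13.3 TPM in HD and 83.3 ± 25.1 TPM in VHD animals (log2 fold change 1.10, SE 0.27, adjusted p = 0.0155 and 0.0648 without VHD animal 3). Among the NF-kappaB and inflammation genes, which were mostly under the limit, 0 of 2 passed, with NFKBIA at 47.6 ± 8.26 TPM in HD and 41.0 ± 8.22 TPM in VHD animals. Outside the lists, TIMP1, an inhibitor of metalloproteinases, averaged 19.9 ± 8.34 TPM in HD and 47.7 ± 9.15 TPM in VHD animals (log2 fold change 1.32, SE 0.31, adjusted p = 0.0133 and 0.0538 without VHD animal 3), and CD4, carried by T helper cells and some myeloid cells, averaged 11.6 ± 5.40 TPM in HD and 25.05 ± 7.29 TPM in VHD animals (log2 fold change 1.11, SE 0.30, adjusted p = 0.0242, 0.143 with all 24 animals and 0.0861 without VHD animal 3).

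In metabolism, 9 of 19 cholesterol synthesis genes fell, 6 after TMM rescaling, and 0 rose (median −0.35, −0.12 relative to all genes). SQLE, squalene epoxidase, averaged 77.3 ± 8.68 TPM in HD and 37.1 ± 8.55 TPM in VHD animals (log2 fold change −1.06, SE 0.18, adjusted p = 0.00440). Of 8 genes of ethanol, acetaldehyde and acetate metabolism 0 passed in limma, 2 were higher after TMM rescaling, and ALDH2, the mitochondrial aldehyde dehydrogenase, stood at 378, 482, 412 and 311 TPM in the HD and 551, 414, 578 and 639.8 TPM in the VHD animals (log2 fold change 0.46, SE 0.17, adjusted p = 0.0677). Of 20 antioxidant genes 3 rose (15%, against 4.78% of all genes). Among them were GPX4 at 404 ± 21.5 TPM in HD and 562 ± 72.2 TPM in VHD animals (log2 fold change 0.47, SE 0.13, adjusted p = 0.0232, 0.0743 with all 24 animals and 0.0739 without HD animal 3) and MT3, a brain metallothionein, at 1961 ± 278 TPM in HD and 2958 ± 597 TPM in VHD animals (log2 fold change 0.58, SE 0.18, adjusted p = 0.0382, 0.0708 after TMM rescaling, 0.120 with all 24 animals and 0.125 without VHD animal 3). Of 18 mTOR and AKT signalling genes 3 fell (16.7%, below the 19.0% of all genes, and 5 after TMM rescaling) and 0 rose, DEPDC5, an inhibitor of mTORC1 signalling, having the smallest p at 27.6 ± 2.70 TPM in HD and 16.9 ± 3.39 TPM in VHD animals (log2 fold change −0.69, SE 0.18, adjusted p = 0.0186, 0.0707 with all 24 animals and 0.0700 without VHD animal 3). Of 7 glucocorticoid-responsive genes 1 fell (14.3%, below the 19.0% of all genes). This was KLF9, at 52.2 ± 4.67 TPM in HD and 24.2 ± 6.52 TPM in VHD animals (log2 fold change −1.11, SE 0.19, adjusted p = 0.00483). Among 16 histone and DNA modifying enzymes 5 fell and 1 rose (31.2% and 6.25%, against 19.0% and 4.78% of all genes). After TMM rescaling 5 fell and 3 rose. KDM5B, a histone demethylase, averaged 22.2 ± 0.996 TPM in HD and 12.0 ± 3.53 TPM in VHD animals (log2 fold change −0.88, SE 0.21, adjusted p = 0.0146 and 0.0591 without VHD animal 3), HDAC2 33.1 ± 2.18 TPM in HD and 21.02 ± 4.84 TPM in VHD animals (log2 fold change −0.66, SE 0.19, adjusted p = 0.0263 and 0.0849 without HD animal 2) and HDAC5, the one that rose as deposited, 81.1 ± 1.46 TPM in HD and 112 ± 13.2 TPM in VHD animals (log2 fold change 0.46, SE 0.13, adjusted p = 0.0246, 0.0999 with all 24 animals and 0.0762 without HD animal 3).

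Of 14 factors that the publication ties to this contrast 11 could be tested, and 2 rose and 2 fell (18.2% each, against 4.78% and 19.0% of all genes). The publication associated these factors with the sets of genes higher in VHD or in HD. It reports POLR2L, YBX1, GTF3A, POLE4 and ATF4 as themselves higher in VHD and EGR1 as higher in HD. Those results come from its own separate analysis and not from the limma fit used here. POLR2L, a small subunit shared by RNA polymerases, rose and averaged 159 ± 10.3 TPM in HD and 249 ± 60.6 TPM in VHD animals (log2 fold change 0.61, SE 0.17, adjusted p = 0.0242, 0.0601 with all 24 animals and 0.0876 without VHD animal 3). POLE4, a small subunit of a DNA polymerase, rose and averaged 83.1 ± 9.35 TPM in HD and 119.8 ± 21.1 TPM in VHD animals (log2 fold change 0.51, SE 0.15, adjusted p = 0.0310, 0.134 with all 24 animals and 0.104 without VHD animal 3). ZMAT2, a splicing protein, and EGR1 fell, ZMAT2 at 326 ± 11.4 TPM in HD and 230.2 ± 35.8 TPM in VHD animals (log2 fold change −0.51, SE 0.14, adjusted p = 0.0223, 0.315 after TMM rescaling, 0.0744 with all 24 animals and 0.0720 without HD animal 3). The other factors did not pass, with log2 fold changes of −0.032 for EDF1, 0.24 for YBX1, 0.28 for GTF3A, 0.15 for ATF4, −0.36 for SMAD4, 0.059 for NFE2L2 and 0.060 for SOX2 (SE between 0.12 and 0.24). The sign for EDF1 turned with TMM rescaling. SUZ12 averaged 7.34 ± 0.964 TPM in HD and 5.60 ± 1.91 TPM in VHD animals and CREB1 5.86 ± 0.380 TPM in HD and 4.51 ± 1.61 TPM in VHD animals, both under the limit, and GATA1 was at 0 in 6 of the 8 animals and at most 0.0451 TPM. Of 35 glutamate and GABA synapse genes tabulated by the study and tested here, 30 fell and 0 rose, with a median of −1.0 (−0.77 relative to all genes). The study chose that list on these same samples, so it is not independent evidence of a direction.

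Controls and LD animals placed these differences within a wider range. The mean level of the 1746 genes called lower, centred on the 24 animals, was 0.305 to 0.375 in HD animals and −0.73 to −0.19 in VHD animals, and it ran from −0.67 to 0.45 in controls and from −0.56 to 0.39 in LD animals. For the 440 genes called higher the levels were −0.36 to −0.24 in HD, 0.23 to 0.51 in VHD, −0.38 to 0.51 in controls and −0.37 to 0.47 in LD animals. Of the 1746 genes the VHD mean lay within the range of the 8 controls in 1517 (86.9%) and below all controls in 229, and the HD mean lay within it in 1529 (87.6%) and above all controls in 217. The VHD mean was below the control median in 1745 of them and the HD mean above it in 1714. The median differences from it were −0.49 for VHD and 0.24 for HD on the log2 scale, and fell and rose here mean relative to HD. Of the 440 genes the VHD mean lay within that range in 369 (83.9%) and above it in 71, and the HD mean lay within it in 397 (90.2%) and below it in 43. The VHD mean was above the control median in 434 of the 440 and the HD mean below it in 430, with median differences of 0.39 and −0.28. Both sets were chosen by the gap between HD and VHD, so positions on opposite sides of the controls are partly set by that choice. Over all 9197 genes the shares within the range were 83.6% for the VHD and 91.0% for the HD mean, with 1268 genes below and 243 above all controls for VHD and 444 below and 383 above for HD. Over these genes the VHD mean was below the control median in 7079 and the HD mean in 4654, with median differences of −0.24 and −0.0036. Control animals 6 and 8 and LD animal 5 were at −0.50, −0.67 and −0.56 for the genes called lower, within the range of the VHD animals. Control animal 6 also had the lowest medium spiny neuron level of the series, −2.60, where the VHD animals went no lower than −0.82. These positions were not tested.

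In the 2 cohorts the difference between categories was estimated at unlike sizes for some lists, but no gene passed the interaction test given below. With 2 animals against 2 in each, the median over all genes was −0.047 in cohort 5 and −0.43 in cohort 7a, and 1 gene and 3639 genes respectively had an adjusted p under 0.05. The cytosolic ribosomal protein list had a median of 0.43 in cohort 5 and 1.15 in cohort 7a, the synaptic vesicle list −0.40 in cohort 5 and −1.15 in cohort 7a, and the AMPA, kainate and NMDA receptor list −0.12 in cohort 5 and −1.32 in cohort 7a. The medium spiny neuron list had −1.07 in cohort 5 and −1.20 in cohort 7a, and complex I had 0.26 in cohort 5 and 0.30 in cohort 7a. These medians are not relative to all genes, whose median was −0.047 in cohort 5 and −0.43 in cohort 7a. Set against it, the medium spiny neuron list lay further from all genes in cohort 5. Complex I lay further from all genes in cohort 7a. GAD1 had log2 fold changes of −0.049 and −1.31 in the 2 cohorts. A test of the interaction of category with cohort called 0 of 9197 genes in limma (0.00%), with a smallest adjusted p of 0.192, and 2015 genes had an unadjusted p under 0.05, of which 1840 were more strongly negative or less positive in cohort 7a. After TMM rescaling 996 genes had an unadjusted p under 0.05, 379 of them in that direction. As deposited, 68 of 80 ribosomal protein genes and 0 of 13 medium spiny neuron genes had an unadjusted interaction p under 0.05, against 2015 of all 9197 genes. With so few genes and animals, 0 of 13 does not show that the medium spiny neuron genes lack a difference between cohorts.

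**Figure D5:**
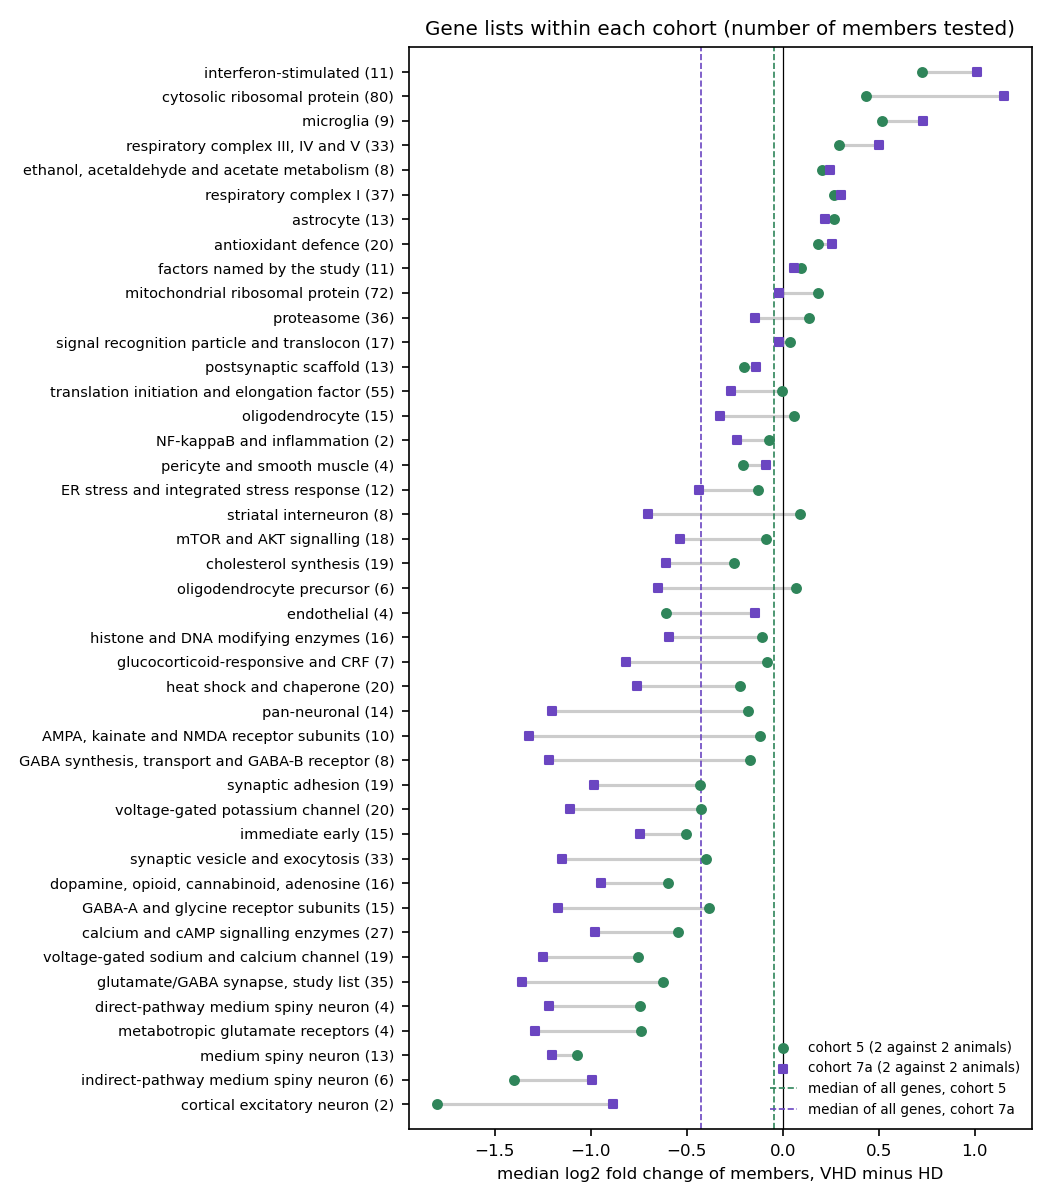
Median log2 fold change (VHD minus HD) of the members of 43 gene lists within cohort 5 (green circles, 2 against 2 animals) and cohort 7a (purple squares, 2 against 2 animals), with dashed lines at the medians of all genes, −0.047 and −0.43. The 3 lists of medium spiny neurons lie at −0.74 or lower in both cohorts, while the pan-neuronal, the AMPA, kainate and NMDA receptor and the GABA synthesis lists lie between −0.18 and −0.12 in cohort 5 and between −1.32 and −1.20 in cohort 7a.

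The number of called genes depended on which animals were included. Without HD animals 1 to 4 in turn it was 1387, 904, 873 and 1047, and without VHD animals 1 to 4 it was 2220, 4094, 739 and 1902, against 2186 with all 8. Without VHD animals 2 and 4 it was 3219, and without HD animals 2 and 4 it was 34, both sets chosen after the data were seen. At an adjusted p under 0.001, 44 genes were called without VHD animal 1, 1 without VHD animal 2, 1 without HD animal 4 and 0 without any other. Among the 94 named genes that were called, 62 remained called without VHD animal 3, 71 without HD animal 2 and 94 without VHD animal 2. With daily intake in g/kg as the predictor over the 8 animals in place of category, 0 genes passed in limma and 190 had an unadjusted p under 0.05. After removal of the ribosomal protein genes and renewed scaling to 1000000, also chosen after the data were seen, 1280 genes were lower and 605 higher. OBP2B, a lipocalin, had the largest log2 fold change among called genes and stood at 156, 66.1, 156 and 0.188 TPM in the HD and 0.717, 1.32, 0.808 and 0.388 TPM in the VHD animals, so that HD animal 4 lay below every VHD animal (log2 fold change −4.40, SE 1.22, adjusted p = 0.0249, 0.0583 with all 24 animals and 0.0793 without HD animal 3).

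The lists lost calls to different degrees in the model of all 24 animals. That model called 1149 of all 9197 genes lower in place of 1746 and 269 higher in place of 440. List counts from it are to be read beside those. The cytosolic ribosomal protein list had 70 of 80 genes called higher in place of 75, the synaptic vesicle list 14 of 33 lower in place of 21, synaptic adhesion 8 in place of 10 and the heat shock and chaperone list 7 in place of 9. Losses were larger in the calcium and cAMP signalling list, with 6 of 27 in place of 18. Dopamine, opioid, cannabinoid and adenosine signalling had 3 of 16 in place of 10, and sodium and calcium channels 5 of 19 in place of 12. Potassium channels had 3 of 20 in place of 8, and GABA-A and glycine receptors 1 of 15 in place of 7. AMPA, kainate and NMDA receptors had 1 of 10 in place of 4, and metabotropic receptors 1 of 4 in place of 4. Cholesterol synthesis had 2 of 19 in place of 9 and the immediate early list 0 of 15 in place of 7. Among lists with genes that rose, complexes III to V had 9 of 33 in place of 17 and microglia 2 of 9 in place of 5. Astrocytes had 1 of 13 in place of 3 and antioxidant defence 0 of 20 in place of 3. Of the factors tied to this contrast by the publication, 0 were called in place of 4.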

How the data were processed

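RNA was measured by RNA-Seq in the nucleus accumbens core of 24 macaques, 1 library each, sequenced 3 libraries to a lane. The authors deposited 1 table of normalised values, which are TPM: each column sums to 999998 to 1000000 over 17208 gene symbols. Per the study's methods and processing notes, FastQC checked the reads, STAR 2.5.2b aligned them to the MacaM genome with at most 2 mismatches and unique placement, HTSeq 0.6.1p1 counted them and DESeq2 was used for the authors' own tests. How counts became TPM is not given in the sources used here, and strand and read pairing are described differently in the methods and in the series' text, so overlapping and antisense genes are uncertain. The depth of each library is not given in the sources used here and no counts were used, so counting error is not given.

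The 4 VHD and 4 HD animals were compared with limma 3.58.1 (R 4.3.3; empirical Bayes with a trend, two-sided) on log2(TPM + 1), with Benjamini-Hochberg adjustment across the 9197 genes that averaged 10 TPM or more over the series; the pseudocount understates changes of low genes. Category was taken from the sample descriptions. Lists were described by counts and medians, without a test of the list. Level of a list is the mean over its tested members of log2(TPM + 1) centred on the 24 animals. The limma script was tested on simulated data with 200 changed genes. Summaries used Python 3.11.15, numpy 2.4.6 and pandas 2.3.3, and figures matplotlib 3.10.9.

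Named genes were the 10 with the smallest p in each direction, the member with the smallest p in every list, the first member of each cell type list and the factors the study named; 43 further genes were added after their values were seen, and some genes that the rule names are not reported here. The comparison, the lists and the members were chosen with earlier results of these data known. Alternatives were pseudocounts of 0.1 and 8, filters of 1 and 100 TPM, a filter over the 8 animals or none, TMM and median-of-ratios rescaling, cohort as a covariate, all 24 animals in the model, array weights, no trend, a robust fit, intake as predictor, single cohorts and each animal left out. Of the 17208 symbols, 27 had been turned into dates and were kept as they stand, and 15246 are in the RefSeq gene table used for names only.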

Additional observations from a re-analysis of the deposited data

Results flagged for a closer look

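In 330 groups of 4 animals, each a gene or a list level within HD or within VHD, 12 had 1 animal whose gap to the nearest other exceeded Dixon's limit, where chance gives about 1 in 20 groups. VHD animal 1 accounted for 5 of them and lay toward HD each time. Its level of the dopamine, opioid, cannabinoid and adenosine list was −0.0281, against −0.408 to −0.359 in the other VHD animals. It had 18.1 TPM of FOXP1 (others 12.9 to 13.5), 476 TPM of GRIN1 (others 302 to 328), 30.7 TPM of KCNQ5 (others 16.4 to 17.8) and 34.3 TPM of HOMER1 (others 20.7 to 22.7). VHD animal 4 had 696 TPM of EDF1 against 583 to 599.5, and VHD animal 2 had 109.6 TPM of GTF3A against 152 to 159.6. HD animal 1 stood apart for PDE10A, at 134 TPM against 78.2 to 84.1, and for GPR158, at 115 TPM against 89.0 to 92.1. HD animal 2 had the lowest level of the complex I list, −0.131 against −0.0499 to −0.0427. GATA1 was listed at 0 in all but HD animal 1, at 0.0368 TPM, and VHD animal 3, at 0.0451 TPM.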

How the results depend on the processing

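The test of the interaction with cohort called 0 genes in each alternative run. Intake as predictor gives a slope per g/kg, so no value of single genes or lists is set beside it. The direction of all called genes was kept in every alternative in which they were tested. The count at an adjusted p under 0.05, 2186, ranged from 739 to 4094 on leaving out 1 animal, and that at 0.001 from 0 to 44. It was 802 at 100 TPM (981 at an unadjusted p under 0.05, where fewer genes were tested), 1418 with all 24 animals in the model, 5939 with array weights (3246 at 0.001 and 6239 unadjusted), 0 with intake as predictor (190 unadjusted), 1 in cohort 5 alone (1466 unadjusted) and 3639 in cohort 7a alone. Without HD animals 2 and 4, an alternative chosen after seeing the data, it was 34, with 1 at 0.001 and 1999 unadjusted. Apart from the smaller number of animals or genes in these alternatives, the cause was not tested. It was 2406 after TMM and 2389 after median-of-ratios rescaling, 2847 with cohort as a covariate and 1459 without a filter. Of 94 named genes that were called, none reversed, and 62 to 94 stayed called on leaving out 1 animal, 82 after TMM rescaling, 42 with all 24 animals, 89 in cohort 7a alone, 15 without HD animals 2 and 4 and 88 without VHD animals 2 and 4.

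Of 22 named genes that were not called, 12 changed sign, with log2 fold changes near 0 for the most part. After TMM and median-of-ratios rescaling the values were 0.190 and 0.187 for CX3CR1, 0.00486 and 0.00206 for CLDN5, 0.0575 and 0.0548 for PDGFRB, 0.174 and 0.171 for EDF1, and 0.144 and 0.141 for TAC1. In cohort 5 alone they were 0.204 for PDGFRA, 0.0169 for CX3CR1, 0.0216 for EDF1 and −0.297 for RPS15A, and in cohort 7a alone 0.0939 for CLDN5, −0.0158 for NFE2L2 and −0.351 for GRIA4. Array weights gave 0.424 for CX3CR1, 0.276 for CLDN5, −0.0435 for NFE2L2 and −0.0549 for SOX2, and a pseudocount of 8 gave 0.0162 for CX3CR1. On leaving out each animal in turn they ran from −0.224 to 0.324 for CX3CR1, −0.0900 to 0.0159 for EDF1, −0.191 to 0.228 for NFE2L2, −0.0731 to 0.197 for SOX2, −0.207 to 0.0645 for TAC1 and −0.205 to 0.592 for GRIA4. Without HD animals 2 and 4 they were 0.906 for SLC17A7, 0.050 for CX3CR1 and −0.00377 for SOX2, and without VHD animals 2 and 4, 0.261 for CX3CR1, −0.0595 for ATF4 and −0.0635 for NFE2L2. Without ribosomal protein genes they were 0.0985 for CX3CR1, 0.0771 for EDF1 and 0.0479 for TAC1. TMM rescaling changed the sign of the median in 6 of 43 lists. No paired analysis was possible because the labels give no replicate numbers shared between the categories. Genes averaging under 10 TPM were tested with the 1 TPM filter (1997 called of 13637) and without a filter (1459 of 16959).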
